A study of Mus musculus with 25 samples.

Results

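The 36 genes described here mark cells that are preparing for division or dividing, and they were taken by gene symbol from the expression tables of mouse pancreatic islets. They comprise 25 genes of mitosis, 7 genes of DNA synthesis in S phase, and 4 genes of the G1 step (the cyclins Ccnd1, Ccnd2 and Ccnd3 and their kinase Cdk4). All 36 were found by symbol among the 17885 genes with a value in any table, and the rule that chose them names genes and uses no measured value, although the list was drawn up with earlier results of these data known. The G1 genes are counted apart from the S phase and mitotic genes throughout.

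A cell leaves G1 when D-type cyclins and their kinase partner release E2F transcription factors from the retinoblastoma proteins, after which the MCM helicase, PCNA and the nucleotide enzymes RRM2 and TYMS copy the genome. In G2 and mitosis the cyclin B and CDK1 kinase, the Aurora and Polo kinases, kinesin motors and centromere proteins condense and separate the chromosomes, and the anaphase-promoting complex with CDC20 and UBE2C ends mitosis by destroying cyclins. Adult beta cells, the insulin-producing cells of the islet, divide rarely, and cyclin D2 is their main D-type cyclin in the mouse.

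The messenger RNA of islets was read in paired-end mode on a BGISEQ-500 sequencer. Each sample was a pool of islets from 3 or more mice, per the labels. The labels do not say whether the replicates of a group are separate pools or portions of the same pool. The p-values thus measure the spread between libraries, which may or may not include the spread between pools of mice. Values in FPKM (fragments normalised for transcript length and for the total of the library) were available for 19 libraries in 4 tables, each normalised on its own, so groups were compared within a table. The study asks what the chromatin-remodelling subunit BAF60C (gene Smarcd3) and the secreted protein REG3B change in islets.

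The groups were as follows. BcBKO HFD islets (2 libraries) came from Pdx1-cre mice with a beta-cell-specific ablation fed HFD for 3 months, and were set against flox/flox HFD islets (2 libraries) from mice on the same diet. Pdx1-cre is also active in pancreatic progenitors. KO_PBS islets (2 libraries) were set against CTR_PBS islets (2 libraries), and KO_REG3B-Fc islets (2 libraries) against KO_PBS and against CTR_PBS. Which gene is knocked out in KO, and how PBS or REG3B-Fc was given, is not stated in the labels. The db_REG3B islets (2 libraries) were set against db_GFP islets (2 libraries), with no further label on strain or vehicle. A further 5 libraries are labelled WT, with no comparison group in their table. Age and sex are not given, and the chow-fed BcBKO and flox/flox samples (3 each) were not analysed here.

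Between 10402 and 12553 genes reached 1 FPKM in each library. Read depth is not given and could not be recovered from values rounded to hundredths, so values well under 1 FPKM may rest on few reads. Insulin transcripts made up 27.0% to 67.8% of the summed FPKM of a library, including 38.9% and 38.2% in KO_PBS against 57.5% and 58.4% in CTR_PBS, and such a difference moves the FPKM of every other gene. Tests therefore used FPKM divided by a library factor that aligns the median gene (median-scaled FPKM), and values printed per library are deposited FPKM unless called scaled. Smarcd3 was at 3.11 and 2.40 FPKM in the libraries labelled BcBKO HFD, against 2.57 and 2.55 FPKM in flox/flox HFD. The ablation is thus not visible at the level of the whole gene, and the deleted exons are not given in the sources used here. In the PBS table Smarcd3 was at 0.75 and 1.09 FPKM in KO_PBS, 1.28 and 1.21 FPKM in KO_REG3B-Fc and 1.03 and 1.15 FPKM in CTR_PBS. In the db table it was lower without overlap, at 1.29 and 1.61 FPKM in db_REG3B against 3.18 and 2.61 FPKM in db_GFP.

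In the 5 WT libraries the G1 genes were abundant and the mitotic genes low. Ccnd2 had the highest median of the 36, at 90.03 FPKM, with 67.86 FPKM in the lowest library and 109.84 FPKM in the highest. Cdk4 followed with a median of 45.08 FPKM (range 29.63 to 83.59), then Ccnd1 with 22.56 FPKM (18.1 to 31.87), the replication clamp gene Pcna with 19.52 FPKM (17.57 to 34.02) and Ccnd3 with 18.03 FPKM (14.44 to 22.15). The ranges of Ccnd1, Pcna and Ccnd3 overlap, and the range of Cdk4 overlaps those of Ccnd2, Ccnd1 and Pcna. The order within these overlapping pairs is thus not separated by the spread between libraries. The range of Ccnd2 lay wholly above those of Ccnd1, Pcna and Ccnd3, and that of Cdk4 wholly above that of Ccnd3. The other S phase genes had medians between 0.9 FPKM (Mcm3) and 2.48 FPKM (Mcm2). Tyms, which makes thymidylate, was the most variable S phase gene, at 1.46 to 8.62 FPKM. Of the 25 mitotic genes, 18 stayed under 1 FPKM in all 5 libraries, and the medians ran from 0.06 FPKM for the kinetochore motor gene Cenpe to 1.48 FPKM for Cks2, which encodes a small partner of CDK1. The summed FPKM of the 25 mitotic genes was 11.9, 13.1, 9.07, 14.1 and 13.0 in replicates 1 to 5. Over the same replicates the summed FPKM of 6 B cell markers was 37.2, 76.2, 28.3, 9.22 and 4.34. Both sets of sums are on the deposited scale. The library factors were 1.08, 0.827, 0.772, 1.26 and 1.15 in the same order, so the order of the libraries can differ after scaling. The relation of the 2 sums was not tested.

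**Figure D1:**
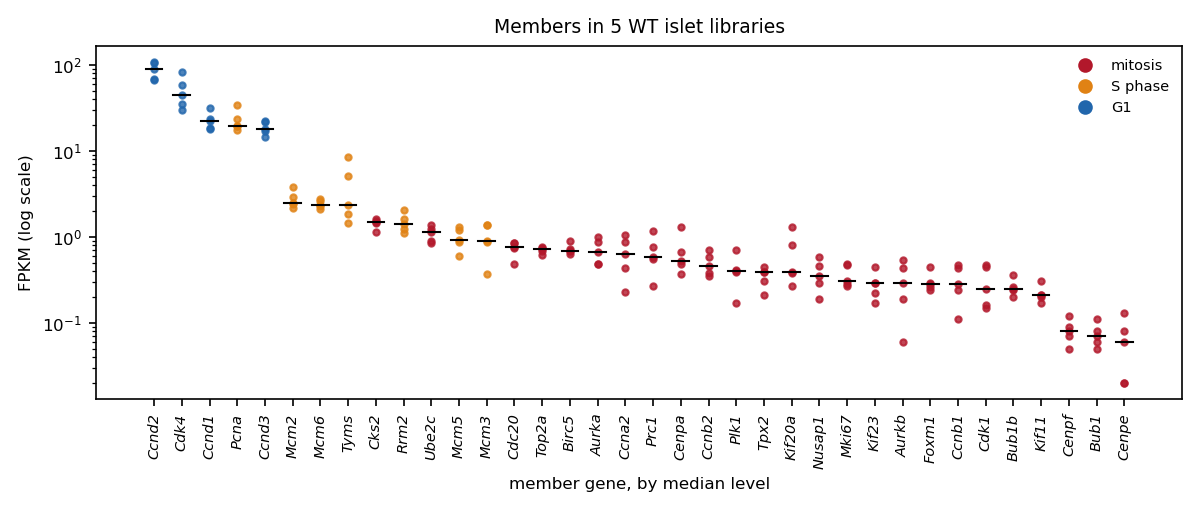
FPKM (log axis) of each of the 36 genes in the 5 WT islet libraries, 1 point per library, with the median as a bar. Ccnd2 and Cdk4 stand at the top, with medians of 90.03 and 45.08 FPKM, and 18 of the 25 mitotic genes have every point under 1 FPKM.

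The upstream sequences of 5 members are printed to show where motifs known from cell cycle promoters lie in 4 of them, with Cdk4 for contrast. RefSeq (GRCm38.p6) gave a start-site window for 29 of the 36 genes, and the 250 bases before the start were searched on both strands. The motifs were the CHR element (TTTGAA), which the MuvB complex binds in genes of G2 and mitosis, the CCAAT box (CCAAT), bound by NF-Y, and an E2F site (TTTGGCGC or TTTCGCGC). Capitals mark the matches, with ATTGG and TTCAAA being the reverse complements of CCAAT and TTTGAA. Ube2c, the ubiquitin-conjugating enzyme of the anaphase-promoting complex, has its window at chr2:164769679-164769928 (plus strand). Cdc20, which activates that complex, has its window at chr4:118437344-118437593 (minus strand). Cdk1, the mitotic kinase, has its window at chr10:69352913-69353162 (minus strand). Mcm6, a subunit of the replicative helicase, has its window at chr1:128359706-128359955 (minus strand). Cdk4, a G1 kinase, has its window at chr10:127063285-127063534 (plus strand).
Ube2c: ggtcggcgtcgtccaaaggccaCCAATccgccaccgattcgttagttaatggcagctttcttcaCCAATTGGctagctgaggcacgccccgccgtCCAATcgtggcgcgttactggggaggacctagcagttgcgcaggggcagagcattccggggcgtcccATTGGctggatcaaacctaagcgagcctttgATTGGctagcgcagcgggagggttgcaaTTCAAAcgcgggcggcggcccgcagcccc
Cdc20: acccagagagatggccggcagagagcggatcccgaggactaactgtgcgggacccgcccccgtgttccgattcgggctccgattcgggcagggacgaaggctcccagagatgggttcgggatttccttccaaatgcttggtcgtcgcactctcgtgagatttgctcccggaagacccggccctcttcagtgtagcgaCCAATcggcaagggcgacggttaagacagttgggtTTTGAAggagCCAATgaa
Cdk1: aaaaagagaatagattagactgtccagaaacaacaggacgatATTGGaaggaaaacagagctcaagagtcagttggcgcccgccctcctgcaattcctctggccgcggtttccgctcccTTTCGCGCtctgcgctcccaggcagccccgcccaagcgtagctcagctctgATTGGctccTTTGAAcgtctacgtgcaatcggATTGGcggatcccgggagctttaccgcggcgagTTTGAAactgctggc
Mcm6: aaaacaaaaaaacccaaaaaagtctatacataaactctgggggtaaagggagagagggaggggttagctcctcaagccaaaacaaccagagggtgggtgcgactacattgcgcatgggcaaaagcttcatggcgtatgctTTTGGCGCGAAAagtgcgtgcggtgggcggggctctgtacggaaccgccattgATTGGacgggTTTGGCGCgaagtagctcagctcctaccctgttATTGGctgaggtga
Cdk4: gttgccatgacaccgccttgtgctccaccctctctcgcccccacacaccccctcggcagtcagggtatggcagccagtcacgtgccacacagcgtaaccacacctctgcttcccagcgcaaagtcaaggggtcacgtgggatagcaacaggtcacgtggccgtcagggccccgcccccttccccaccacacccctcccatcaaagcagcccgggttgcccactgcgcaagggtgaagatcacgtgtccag
In Ube2c a CHR element lies 29 bases before the start and 6 CCAAT boxes precede it, of which a pair 186 and 183 bases before the start overlap. In Cdc20 the CHR element lies 18 bases before the start, between CCAAT boxes at 53 and 8 bases. Cdk1 holds 2 CHR elements, 3 CCAAT boxes and 1 E2F site. Mcm6 holds 3 E2F sites, of which those 110 and 106 bases before the start overlap, and 2 CCAAT boxes. The Cdk4 window holds none of these letters.

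Over all members with a window, a CCAAT box occurred in 18 of 20 mitotic genes (90.0%) and 6 of 7 S phase genes (85.7%), against 37.5% of the 27025 genes in the RefSeq table. A CHR element occurred in 8 of 20 mitotic genes (40.0%) and 1 of 7 S phase genes, against 18.3% of all genes. An E2F site occurred in Cdk1, Mcm5 and Mcm6, against 0.759% of all genes. Among the G1 genes, 1 of 2 held a CCAAT box and neither held a CHR element or an E2F site. These are matches of letters in a window and no binding was measured here.

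In KO_PBS islets the mitotic genes were higher than in CTR_PBS islets, whereas the G1 genes Ccnd1, Ccnd2 and Cdk4 were lower. With all 36 genes tested and no filter on low values, all 25 mitotic genes and 6 of 7 S phase genes rose (limma, Benjamini-Hochberg adjusted p under 0.05), against 22% of all genes tested. In the same test 3 of the 4 G1 genes fell, against 11.7% of all genes. The median of the 25 mitotic genes was a 6.06-fold higher scaled FPKM in KO_PBS (range 1.75 to 8.70). The summed FPKM of the mitotic genes was 30.3 and 28.0 in KO_PBS, against 8.11 and 8.65 in CTR_PBS. In bulk islets, more or fewer cells of a type and more or less RNA per cell cannot be told apart.

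The reported test kept genes with a mean of at least 0.5 FPKM over the 6 libraries of the table, which left 14 mitotic genes, all 7 S phase genes and all 4 G1 genes. Of these, 14 mitotic and 6 S phase genes and Ccnd3 were called higher, against a background of 25.6% of genes, and Ccnd1, Ccnd2 and Cdk4 were called lower, against 18.7%. The 11 mitotic genes below the filter were Cdk1, Cenpe, Cenpf, Kif11, Kif23, Aurkb, Bub1, Bub1b, Plk1, Nusap1 and Foxm1, with means of 0.17 to 0.915 FPKM in KO_PBS and 0.045 to 0.295 FPKM in CTR_PBS. Changes are given as log2 of scaled FPKM plus 1, a scale that understates the fold of low genes.

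Among the genes that end mitosis, Ube2c had 3.66 and 3.56 FPKM in KO_PBS islets, against 0.53 and 0.67 FPKM in CTR_PBS islets. Both KO_PBS libraries lay far above both CTR_PBS libraries, an 8.70-fold difference in scaled FPKM and the largest of the tested members (log2 change 1.89, SE 0.0728, adjusted p = 3.79e-07). Cdc20 had 1.62 and 1.91 FPKM in KO_PBS, against 0.43 and 0.41 FPKM in CTR_PBS (log2 change 1.26, adjusted p = 7.26e-06). Again the groups did not overlap, and the replicates of each group lay close together.

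Among regulators of the mitotic kinase, Cks2 had 3.07 and 2.06 FPKM in KO_PBS, against 0.88 and 0.81 FPKM in CTR_PBS (log2 change 1.29, SE 0.120, adjusted p = 5.77e-05). The KO_PBS libraries differed from each other more for Cks2 than for Ube2c, but both stayed above CTR_PBS. The B-type cyclin gene Ccnb1 had 1.16 and 0.90 FPKM in KO_PBS, against 0.16 and 0.21 FPKM in CTR_PBS, and Ccnb2 had 1.52 and 1.02 FPKM against 0.23 and 0.48 FPKM. Their log2 changes were both 1.01, with adjusted p = 2.68e-05 for Ccnb1 and 0.000327 for Ccnb2.

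Among genes that shape and separate chromosomes, Top2a, the topoisomerase that untangles sister chromatids, had 2.04 and 1.78 FPKM in KO_PBS, against 0.38 and 0.35 FPKM in CTR_PBS (log2 change 1.40, adjusted p = 1.64e-06). Birc5, a subunit of the chromosomal passenger complex, had 1.74 and 1.39 FPKM in KO_PBS, against 0.22 and 0.41 FPKM in CTR_PBS (log2 change 1.25). Cenpa, the centromeric histone, had 1.99 and 1.82 FPKM in KO_PBS, against 0.64 and 0.54 FPKM in CTR_PBS (log2 change 1.19). In each of these genes the lower KO_PBS library was above the higher CTR_PBS library. Prc1, which bundles the microtubules of the spindle midzone, had 1.86 and 1.76 FPKM in KO_PBS, against 0.72 and 0.62 FPKM in CTR_PBS (log2 change 1.07). Mki67, the proliferation marker Ki-67, had 1.29 and 1.10 FPKM in KO_PBS, against 0.28 and 0.20 FPKM in CTR_PBS (log2 change 1.08, adjusted p = 9.76e-06). After scaling, all 25 mitotic genes had both KO_PBS libraries above both CTR_PBS libraries, a pattern found in 38.3% of all genes. On the deposited scale 13 of the 14 tested mitotic genes and 3 S phase genes were called higher, against 9.11% of all genes. The kinase gene Aurka was the exception, since its groups overlapped on that scale, and its call was also lost without CTR_PBS replicate 2 (adjusted p = 0.0606).

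Among the S phase genes, Mcm3 and Mcm5, subunits of the MCM helicase, rose with the mitotic genes. Mcm3 had 1.78 and 1.71 FPKM in KO_PBS, against 0.80 and 0.64 FPKM in CTR_PBS (log2 change 0.99, adjusted p = 1.95e-05), and Mcm5 had 1.54 and 1.77 FPKM against 0.68 and 0.65 FPKM (log2 change 0.98, adjusted p = 1.56e-05). Rrm2, the ribonucleotide reductase subunit made in S phase, averaged 3.16 ± 0.0283 FPKM in KO_PBS and 2.08 ± 0.247 FPKM in CTR_PBS (SD, n = 2 each, log2 change 0.84). These 3 genes were called higher on the deposited scale too. The other 4 depended more on the scale. Pcna rose by 0.42 on the scaled log2 scale but was 0.09 lower on the deposited one, with 16.02 and 17.20 FPKM in KO_PBS against 17.46 and 18.04 FPKM in CTR_PBS. Mcm2 and Mcm6 were called higher after scaling (log2 changes 0.45 and 0.54) and overlapped between the groups as deposited. Tyms was not called after scaling (log2 change 0.11, adjusted p = 0.211) and was called lower as deposited, where all 4 G1 genes were lower too, against 78.6% of all genes.

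The G1 genes did not move with the mitotic genes. Ccnd2 had 45.91 and 45.11 FPKM in KO_PBS, against 101.54 and 100.72 FPKM in CTR_PBS, with replicates within about 1 FPKM of each other (log2 change -0.61, SE 0.0385, adjusted p = 6e-06). Ccnd1 had 17.30 and 16.86 FPKM in KO_PBS, against 32.64 and 32.26 FPKM in CTR_PBS (log2 change -0.38, adjusted p = 8.63e-05). Cdk4 averaged 32.7 ± 0.587 FPKM in KO_PBS and 54.5 ± 2.62 FPKM in CTR_PBS (SD, n = 2 each, log2 change -0.20, adjusted p = 0.0112). All 3 were lower without overlap on either scale, against 34.3% of all genes after scaling, although the call of Cdk4 was lost without CTR_PBS replicate 2 (adjusted p = 0.0924). Ccnd3 was higher after scaling (log2 change 0.23, adjusted p = 0.0153) and lower as deposited (log2 change -0.27), with 15.63 and 16.63 FPKM in KO_PBS against 20.06 and 19.38 FPKM in CTR_PBS, and its call was lost with no filter (adjusted p = 0.0566) and without CTR_PBS replicate 1 (0.0609), CTR_PBS replicate 2 (0.0814) or KO_PBS replicate 2 (0.0815). The scaling itself matters here, since on the deposited scale the median of all genes differed by -0.422 (log2) between these groups.

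**Figure D2:**
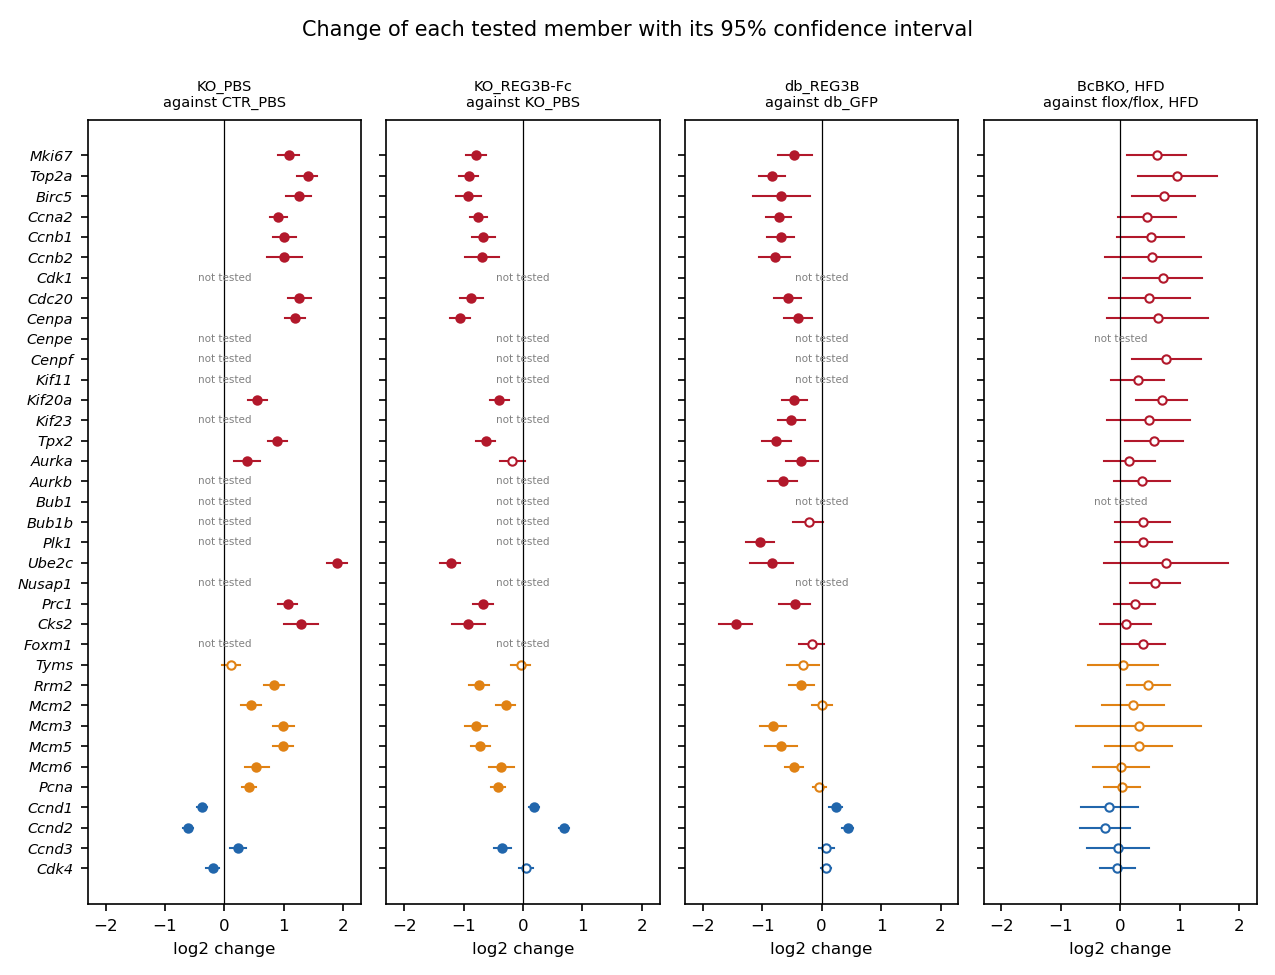
Change of each of the 36 genes in log2(median-scaled FPKM + 1), with its 95% confidence interval from limma, in KO_PBS against CTR_PBS, KO_REG3B-Fc against KO_PBS, db_REG3B against db_GFP, and BcBKO HFD against flox/flox HFD. Filled points passed the adjusted p threshold, and genes under the filter are marked as not tested. Ube2c lies at 1.89, -1.22, -0.84 and 0.77 in these comparisons, and Ccnd2 at -0.61, 0.69, 0.44 and -0.26. Among the filled points, the signs of Pcna and Ccnd3 in the first 2 comparisons, and of Mcm2 and Mcm6 in the second, are the opposite on the deposited scale.

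Further genes of the same pathway were listed apart from the 36. Over all genes tested in this comparison, 25.6% were called higher and 18.7% lower. Of 23 tested genes from a wider mitotic list, 20 rose and 1 fell, with a median log2 change of 0.53, against 0.009 over all genes tested. Stmn1, which destabilises microtubules, had 10.96 and 8.96 FPKM in KO_PBS, against 4.30 and 4.13 FPKM in CTR_PBS (log2 change 1.54). The 1 that fell was Spc25, a kinetochore subunit, at 87.81 and 85.12 FPKM in KO_PBS against 236.01 and 225.81 FPKM in CTR_PBS. That level is far above every mitotic member, and Spc25 (chr2:69193895-69206213, GRCm38.p6) neighbours G6pc2, an abundant islet gene that starts at position 69211073. Of 33 tested replication genes, 22 rose and 0 fell (median log2 change 0.29), among them Uhrf1, which keeps DNA methylation through replication, at 1.18 and 1.26 FPKM in KO_PBS against 0.18 and 0.21 FPKM in CTR_PBS. Of 17 tested G1 regulators, 5 rose and 0 fell (median 0.18), led by the CDK inhibitor gene Cdkn1a (p21), at 21.70 and 21.22 FPKM in KO_PBS against 18.63 and 18.10 FPKM in CTR_PBS (log2 change 0.73). Of 5 tested genes of the DREAM complex, which represses cell cycle genes in resting cells, 1 rose and 0 fell (Lin37, log2 change 0.25). The shares of G1 regulators and DREAM genes that rose were near that of all genes. Of the calls in these lists, 1 mitotic gene, 7 replication genes, 3 G1 regulators and Lin37 had deposited means in the other direction, none of the other genes named here among them.

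Markers of several other cell types moved with the mitotic genes. All 7 B cell markers rose, and their summed FPKM was 75.3 and 72.1 in KO_PBS, against 3.76 and 3.90 in CTR_PBS. The B cell surface gene Ms4a1 was at 5.53 and 5.39 FPKM in KO_PBS, and it was listed at 0 in both CTR_PBS libraries. All 6 macrophage markers rose after scaling (C1qa was lower as deposited), with sums of 156 and 149 FPKM in KO_PBS against 64.2 and 65.8 FPKM in CTR_PBS. Most of that gap came from Lyz2, at 94.53 and 88.96 FPKM in KO_PBS against 11.28 and 10.41 FPKM in CTR_PBS. C1qb, for example, had 17.6 and 16.93 FPKM against 14.52 and 15.23 FPKM. The acinar markers, from the enzyme-secreting cells around islets, rose in 8 of 8 (sums 247000 and 259000 FPKM against 131000 and 132000 FPKM), and the stellate markers, from the fibroblast-like cells of the pancreas, rose in 4 of 5 tested. All 5 erythroid markers also rose (sums 600 and 613 FPKM against 392 and 396 FPKM). Endothelial markers, from blood vessels, were mixed, with 4 called higher (these 4 were lower as deposited) and 2 called lower. Of 4 duct markers tested, 3 rose and 1 fell. Beta cell markers fell in 5 of 6 tested, with deposited sums of 495000 and 487000 FPKM in KO_PBS against 806000 and 841000 FPKM in CTR_PBS. After scaling the gap between the sums was smaller, at 644000 and 645000 in KO_PBS against 724000 and 767000 in CTR_PBS. The part of these cell types in the change of the mitotic genes was not tested.

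In the authors' deposited table for this comparison, 23 of the 25 mitotic genes were called higher and 0 lower, against 14.7% and 11.2% of all genes. The authors' deposited table also called 6 S phase genes higher and 3 G1 genes lower.

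**Figure D3:**
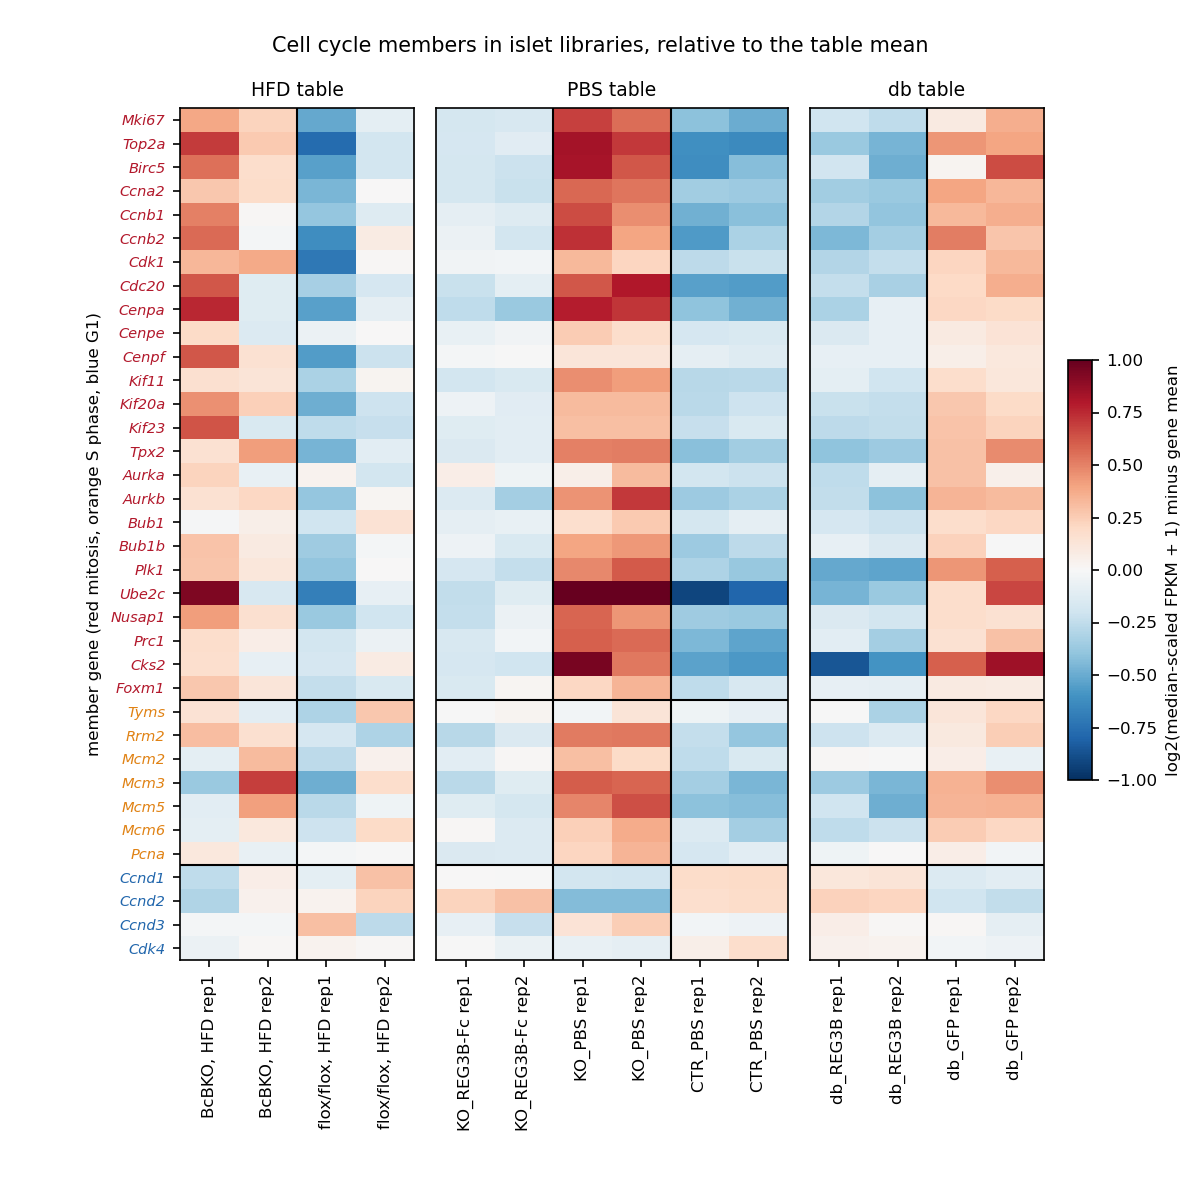
Level of each of the 36 genes in each library of the 3 tables with a comparison, as log2(median-scaled FPKM + 1) minus the mean of that gene in its table, with the colour scale ending at -1 and 1. The mitotic genes are highest in KO_PBS, db_GFP and BcBKO HFD replicate 1, and Ccnd1 and Ccnd2 are lowest in KO_PBS and db_GFP of their own tables.

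In KO_REG3B-Fc islets the mitotic genes were lower than in KO_PBS islets, while Ccnd1 and Ccnd2 were higher. This comparison and the next share their KO_PBS, KO_REG3B-Fc or CTR_PBS libraries with the one above, so they are not independent of it. With no filter, 24 of 25 mitotic genes (all but Aurka) and 5 of 7 S phase genes fell, against 20.8% of all genes, and Ccnd1 and Ccnd2 rose, against 12.6%. The ratio of scaled FPKM in KO_REG3B-Fc to that in KO_PBS had a median of 0.351 over the 25 mitotic genes (range 0.204 to 0.786). The summed FPKM of these genes was 16.7 and 16.3 in KO_REG3B-Fc, against 30.3 and 28.0 in KO_PBS.

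In the reported test 13 of 14 mitotic and 6 of 7 S phase genes and Ccnd3 were called lower, against 25.3% of genes, and 2 G1 genes were called higher, against 19.2%. Ube2c had 1.62 and 1.83 FPKM in KO_REG3B-Fc islets, against 3.66 and 3.56 FPKM in KO_PBS islets (log2 change -1.22, SE 0.0728, adjusted p = 4.51e-06). Cenpa had 0.89 and 0.71 FPKM in KO_REG3B-Fc, against 1.99 and 1.82 FPKM in KO_PBS (log2 change -1.06, adjusted p = 1.01e-05). For each gene both KO_REG3B-Fc libraries lay below both KO_PBS libraries by far more than the gap between replicates. Birc5 had 0.76 and 0.69 FPKM in KO_REG3B-Fc, against 1.74 and 1.39 FPKM in KO_PBS (log2 change -0.92). Top2a had 0.99 and 1.05 FPKM in KO_REG3B-Fc, against 2.04 and 1.78 FPKM in KO_PBS (log2 change -0.91), and Mki67 had 0.57 FPKM in each KO_REG3B-Fc library, against 1.29 and 1.10 FPKM in KO_PBS (log2 change -0.79). Each of these fell without overlap. Cks2 averaged 1.52 ± 0.0778 FPKM in KO_REG3B-Fc and 2.56 ± 0.714 FPKM in KO_PBS (SD, n = 2 each, log2 change -0.92). After scaling, 24 of 25 mitotic genes had both KO_REG3B-Fc libraries below both KO_PBS libraries, against 37.1% of all genes. On the deposited scale 12 tested mitotic and 3 S phase genes were called lower, against 7.21% of all genes, Kif20a and Aurka being the exceptions among the 14.

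Mcm3 had 0.96 and 1.17 FPKM in KO_REG3B-Fc, against 1.78 and 1.71 FPKM in KO_PBS (log2 change -0.79), and Mcm5 and Rrm2 fell by 0.72 and 0.74 on the log2 scale. These 3 were called lower on the deposited scale too. Pcna, Mcm2 and Mcm6 fell after scaling (log2 changes -0.42, -0.29 and -0.37) but were 0.19, 0.20 and 0.12 higher as deposited. The calls of Mcm2 and Mcm6 were also lost without 1 library, Mcm2 without KO_PBS replicate 1 (adjusted p = 0.0586) or KO_REG3B-Fc replicate 1 (0.0796) and Mcm6 without KO_PBS replicate 2 (0.0587) or KO_REG3B-Fc replicate 2 (0.0734). Of the G1 genes, Ccnd2 had 113.24 and 116.35 FPKM in KO_REG3B-Fc islets, against 45.91 and 45.11 FPKM in KO_PBS islets (log2 change 0.69, adjusted p = 3.03e-06). Ccnd1 had 30.81 and 29.87 FPKM in KO_REG3B-Fc, against 17.30 and 16.86 FPKM in KO_PBS (log2 change 0.19, adjusted p = 0.0044). Both rose on either scale, and 3 of the 4 G1 genes had both KO_REG3B-Fc libraries above both KO_PBS libraries after scaling, against 35.1% of all genes. Ccnd3 fell by 0.35 after scaling but was 0.25 higher as deposited, and Cdk4 was not called after scaling (log2 change 0.05, adjusted p = 0.471) and higher as deposited. On the deposited scale all 4 G1 genes and 3 S phase genes were called higher, against 84.1% of all genes, and the median of all genes differed by 0.511 (log2).

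Over all genes tested in this comparison, 25.3% were called lower and 19.2% higher. Of the wider lists, 18 of 23 mitotic genes fell and 1 (Spc25) rose, 20 of 33 replication genes fell, 6 of 17 G1 regulators fell and none of 5 DREAM genes was called (lowest adjusted p = 0.297). Of these calls, 8 mitotic genes, 13 replication genes and 5 G1 regulators were higher in KO_REG3B-Fc as deposited. All 7 B cell markers fell, with sums of 4.51 and 4.65 FPKM in KO_REG3B-Fc against 75.3 and 72.1 FPKM in KO_PBS, and all 6 macrophage markers fell after scaling (3 of them were higher as deposited), with sums of 87.3 and 86.4 FPKM against 156 and 149 FPKM. The gap in the macrophage sums came from Lyz2, at 15.74 and 16.76 FPKM in KO_REG3B-Fc against 94.53 and 88.96 FPKM in KO_PBS. The 8 acinar markers also fell (sums 107000 and 107000 FPKM against 247000 and 259000 FPKM), as did 4 of 5 stellate markers and all 5 erythroid markers. Of 6 beta cell markers, 4 rose. The sums of all 6 as deposited were 802000 and 789000 FPKM in KO_REG3B-Fc, against 495000 and 487000 FPKM in KO_PBS. After scaling these sums were much closer, at 669000 and 675000 in KO_REG3B-Fc against 644000 and 645000 in KO_PBS. Endothelial markers were mixed, with 4 called lower (these 4 were higher as deposited) and 2 called higher, and of 4 duct markers tested 3 fell and 1 rose. Their part in the change of the mitotic genes was not tested. The authors' deposited table called 24 mitotic and 5 S phase genes lower, against 13.9% of all genes, and 2 G1 genes higher, against 10.2%, and 1 lower.

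Compared with CTR_PBS, the mitotic genes of KO_REG3B-Fc islets were still higher, by a smaller amount. The fold of scaled FPKM over CTR_PBS had a median of 1.96 over these 25 genes. Of them, 24 (all but Aurkb) had both KO_REG3B-Fc libraries above both CTR_PBS libraries, against 29.8% of all genes. The test called 7 of 14 mitotic genes higher (Ube2c, Top2a, Cdc20, Prc1, Ccnb1, Mki67 and Tpx2, a spindle assembly factor), against 5.4% of genes, and 0 of 7 S phase genes, of which 2 had an unadjusted p under 0.05. Ube2c had 1.62 and 1.83 FPKM in KO_REG3B-Fc, against 0.53 and 0.67 FPKM in CTR_PBS (log2 change 0.67, adjusted p = 0.00107). Top2a had 0.99 and 1.05 FPKM in KO_REG3B-Fc, against 0.38 and 0.35 FPKM in CTR_PBS (log2 change 0.49, adjusted p = 0.0041). The libraries of each group lay close together for both genes. Ccnd1 was called lower (log2 change -0.19, adjusted p = 0.0172), against 4.71% of genes, and Ccnd2 was not called (log2 change 0.08, 95% interval -0.01 to 0.17). These counts were not stable, since without any 1 of the libraries compared 2 to 3 members were called higher and 0 lower, and with no filter 4 were called higher, against 2.25% of all genes, and 1 lower, against 1.91%. On the deposited scale 9 mitotic and 3 S phase genes and Ccnd2 were called higher, against 16.3% of all genes, and 0 members lower, against 2.71%. After scaling 3 of 4 G1 genes had both KO_REG3B-Fc libraries below both CTR_PBS libraries, against 27.8% of all genes. B cell markers were near their CTR_PBS level (sums 4.51 and 4.65 FPKM against 3.76 and 3.90 FPKM, lowest adjusted p = 0.356), and 3 of 6 macrophage markers rose (sums 87.3 and 86.4 FPKM against 64.2 and 65.8 FPKM). Stellate markers rose in 4 of 5 tested (sums 25.8 and 23.7 FPKM against 15.0 and 15.4 FPKM), as did all 3 markers of alpha cells, which make glucagon, and both markers of delta cells, which make somatostatin. The 8 acinar and 5 erythroid markers fell. Their part in the change of the mitotic genes was not tested. Of the wider lists, 5 of 23 mitotic genes rose and 1 (Spc25) fell, 2 of 33 replication genes rose, and 2 of 17 G1 regulators rose, including Cdkn1a, at 30.67 and 29.31 FPKM in KO_REG3B-Fc against 18.63 and 18.10 FPKM in CTR_PBS. None of the 5 DREAM genes was called (lowest adjusted p = 0.263). Over all genes tested, 5.4% were called higher and 4.71% lower, and the share of replication genes that rose was near the first of these.

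Across the 3 groups of this table the scaled values of 23 of 25 mitotic genes were ordered with KO_PBS highest, KO_REG3B-Fc between and CTR_PBS lowest, with no overlap, against 8.7% of all genes tested. Aurka and Aurkb were the exceptions. Of the S phase genes Mcm2, Mcm3, Mcm5 and Mcm6 had this order. The reverse order, with KO_PBS lowest, held for Ccnd1 and Cdk4, against 7.62% of all genes.

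**Figure D4:**
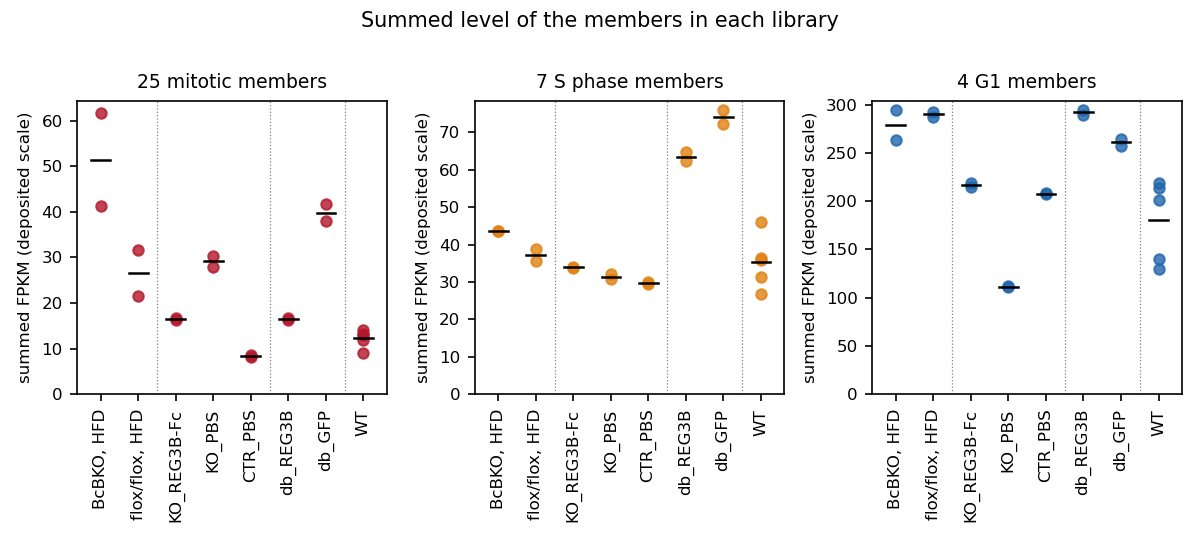
Summed deposited FPKM of the 25 mitotic, 7 S phase and 4 G1 genes in each library, 1 point per library and the group mean as a bar, with each table normalised on its own. The mitotic sum is 30.3 and 28.0 in KO_PBS, 16.7 and 16.3 in KO_REG3B-Fc and 8.11 and 8.65 in CTR_PBS, and 16.2 and 16.7 in db_REG3B against 38.0 and 41.7 in db_GFP.

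In db_REG3B islets the mitotic genes were lower than in db_GFP islets, and Ccnd1 and Ccnd2 were higher. With no filter, 21 of 25 mitotic genes (not Birc5, Aurka, Bub1b and Foxm1) and 4 of 7 S phase genes fell, against 21.1% of all genes, and 2 of 4 G1 genes rose, against 11.5%. All 25 mitotic genes had both db_REG3B libraries below both db_GFP libraries, against 39.8% of all genes. The ratio of scaled FPKM in db_REG3B to that in db_GFP had a median of 0.381 over these genes (range 0.125 to 0.773). On the deposited scale 17 tested mitotic and 5 S phase genes were called lower, against 30.6% of all genes, and Ccnd1 and Ccnd2 higher, against 11.6%. The median of all genes differed by -0.063 (log2) on that scale.

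In the reported test 19 mitotic genes passed the filter. Of these, 17 were called lower, against 26.5% of genes, and Bub1b and Foxm1, a checkpoint kinase-like gene and a transcription factor of G2 genes, were not (log2 changes -0.22 and -0.17). The 6 mitotic genes under the filter (Cdk1, Cenpe, Cenpf, Kif11, Bub1 and Nusap1) had means of 0.045 to 0.295 FPKM in db_REG3B and 0.18 to 0.735 FPKM in db_GFP. Cks2 had the largest log2 change of the tested members, with 1.25 and 1.74 FPKM in db_REG3B islets, against 5.41 and 6.59 FPKM in db_GFP islets (log2 change -1.45, SE 0.12, adjusted p = 6.73e-05). Plk1, the Polo kinase of mitotic entry and exit, had 0.32 and 0.31 FPKM in db_REG3B, against 1.61 and 1.89 FPKM in db_GFP (log2 change -1.04, adjusted p = 0.000152). In both genes the gap between the groups was several times the gap between replicates, and in scaled FPKM, which does not compress low values, Plk1 was at 0.187 and Cks2 at 0.258 of the db_GFP level. Ube2c had 1.22 and 1.41 FPKM in db_REG3B, against 2.59 and 4.03 FPKM in db_GFP (log2 change -0.84, adjusted p = 0.00347). Top2a had 0.62 and 0.53 FPKM in db_REG3B, against 1.92 and 1.81 FPKM in db_GFP (log2 change -0.83, adjusted p = 0.000323). The db_GFP libraries were well apart for Ube2c and close for Top2a. Ccnb2 had 0.44 and 0.57 FPKM in db_REG3B, against 1.88 and 1.44 FPKM in db_GFP (log2 change -0.79). Tpx2 had 0.35 and 0.40 FPKM in db_REG3B, against 1.23 and 1.53 FPKM in db_GFP (log2 change -0.77). Some weaker calls rested on single libraries. Without db_GFP replicate 1, Cenpa (adjusted p = 0.0504) and Aurka (0.241) were lost, and without db_GFP replicate 2, Birc5 (0.117), Cenpa (0.0529), Prc1 (0.0734) and Rrm2 (0.113) were lost. Without db_REG3B replicate 1, Mki67 (0.0523), Cenpa (0.071), Aurka (0.176) and Rrm2 (0.0691) were lost, and without db_REG3B replicate 2, Mki67 (0.077), Birc5 (0.138), Aurka (0.0514) and Prc1 (0.0657).

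Of the S phase genes, Mcm3 had 1.21 and 1.11 FPKM in db_REG3B islets, against 2.75 and 3.05 FPKM in db_GFP islets (log2 change -0.82, adjusted p = 0.000303). Mcm5 and Mcm6 fell by 0.68 and 0.47 on the log2 scale, Tyms was close to the threshold (log2 change -0.32, adjusted p = 0.0545), and Mcm2 and Pcna were not called (log2 changes 0.01 and -0.04, 95% intervals -0.16 to 0.18 and -0.15 to 0.08). Of the G1 genes, Ccnd2 had 104.13 and 106.33 FPKM in db_REG3B, against 81.83 and 78.53 FPKM in db_GFP (log2 change 0.44, adjusted p = 8.07e-05), against a background of 17.6% of genes called higher. Ccnd1 had 30.07 and 31.29 FPKM in db_REG3B, against 26.66 and 27.13 FPKM in db_GFP (log2 change 0.24, adjusted p = 0.00385). Ccnd3 and Cdk4 were not called (log2 changes 0.08 and 0.07), although after scaling all 4 G1 genes had both db_REG3B libraries above both db_GFP libraries, against 32.9% of all genes.

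Of the wider lists, 17 of 29 mitotic genes fell and 1 (Spc25) rose, with a median log2 change of -0.33 against -0.016 over all genes, and 15 of 34 replication genes fell and 1 rose (median -0.20). Over all genes tested in this comparison, 26.5% were called lower and 17.6% higher. Stmn1 had 3.91 and 4.08 FPKM in db_REG3B, against 12.29 and 12.81 FPKM in db_GFP (log2 change -1.39). Tk1, the thymidine kinase of S phase, had 0.36 and 0.26 FPKM in db_REG3B, against 2.05 and 2.21 FPKM in db_GFP (log2 change -1.23). Of 17 G1 regulators 4 rose and 2 fell. The CDK inhibitor gene Cdkn1a rose, with 75.99 and 75.50 FPKM in db_REG3B against 44.82 and 46.67 FPKM in db_GFP (log2 change 0.77), and Cdk2, the kinase of the G1 to S step, fell by 0.78 on the log2 scale. None of 6 DREAM genes was called by limma (lowest adjusted p = 0.156).

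Markers of several other cell types fell with the mitotic genes. The summed FPKM of the macrophage markers was 356 and 368 in db_REG3B, against 741 and 749 in db_GFP, and all 6 were called lower. The summed FPKM of the stellate markers was 220 and 233 in db_REG3B, against 1280 and 1270 in db_GFP, and that of the endothelial markers, from blood vessels, was 38.9 and 42.4 against 77.5 and 76.7, again with 6 of 6 lower in each list. The 4 duct markers tested, 3 of 3 alpha cell markers and 6 of 8 acinar markers also fell, while 1 acinar marker was called higher. All 6 beta cell markers rose, with sums of 643000 and 663000 FPKM in db_REG3B against 324000 and 331000 FPKM in db_GFP. Their part in the change of the mitotic genes was not tested. B cell markers, in contrast to the KO_PBS comparison, were low in both groups, with sums of 3.00 and 3.31 FPKM in db_REG3B against 3.14 and 3.52 FPKM in db_GFP. Ms4a1 was listed at 0 in both db_GFP libraries. The near-equal sums hide opposite differences, since of 3 markers tested 1 was called higher and 1 lower. Cd79a had 1.18 and 1.34 FPKM in db_REG3B against 0.08 and 0.23 FPKM in db_GFP, and Cd22 had 0.44 and 0.62 FPKM against 1.27 and 1.47 FPKM. The authors' deposited table called 14 mitotic and 3 S phase genes lower, against 15.1% of all genes, and 2 G1 genes higher, against 12.3%.

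The comparisons of KO_PBS with CTR_PBS and of db_REG3B with db_GFP share no library. With no filter on low values, 25 of the 32 S phase and mitotic genes were called higher in KO_PBS and lower in db_REG3B, which is 80.6% of the 31 called higher in KO_PBS and 100% of the 25 called lower in db_REG3B. Birc5, Aurka, Bub1b, Foxm1, Mcm2 and Pcna were called in KO_PBS but not in db_REG3B. Over all genes tested in both, 1771 had this pair of calls, which is 47.5% and 49.7% of the genes called. Likewise 24 of the 32 were called lower in KO_REG3B-Fc than in KO_PBS and lower in db_REG3B than in db_GFP, which is 82.8% and 96% of the members called, against 46.3% and 45.7% over all genes.

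**Figure D5:**
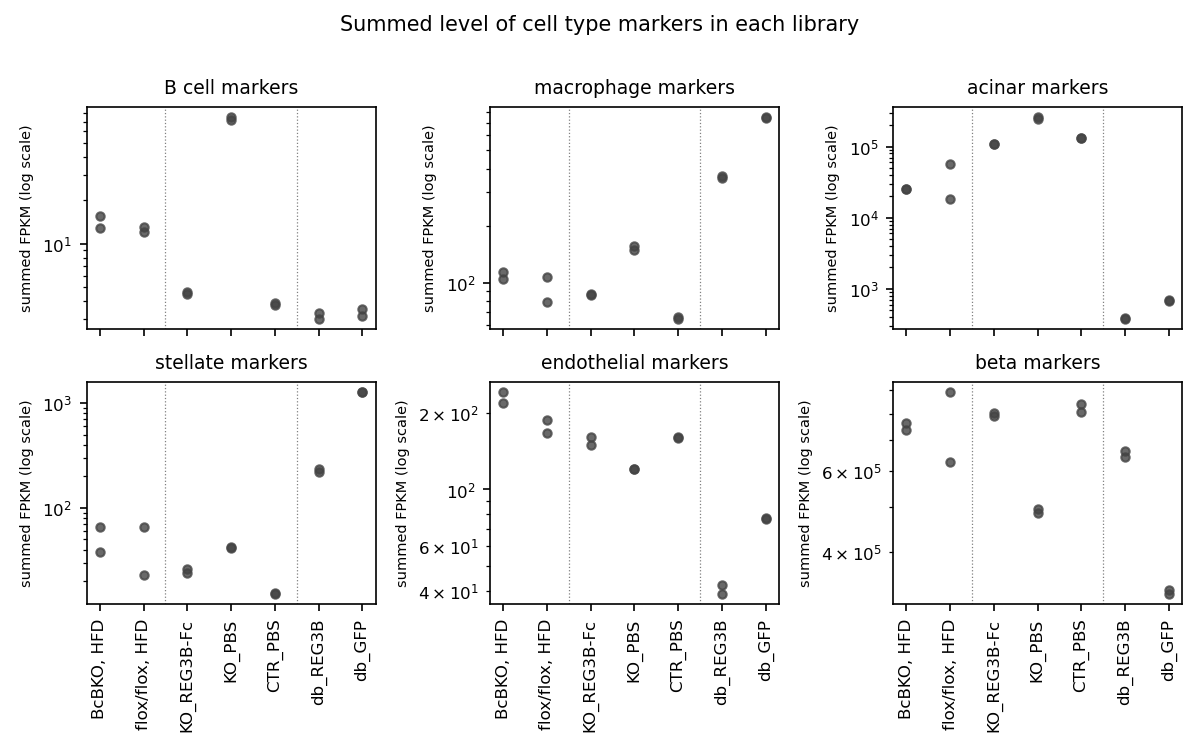
Summed deposited FPKM (log axis) of markers of B cells, macrophages, acinar, stellate, endothelial and beta cells in each library. B cell markers are at 75.3 and 72.1 in KO_PBS against 3.76 and 3.90 in CTR_PBS, and stellate markers at 220 and 233 in db_REG3B against 1280 and 1270 in db_GFP.

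In the libraries labelled BcBKO HFD the mitotic genes tended to lie above flox/flox HFD, but no member passed the test. With limma, 0 of the 34 tested members were called higher or lower (adjusted p = 1 for each), against 0.00816% of genes called higher and 0% called lower, and 10 members had an unadjusted p under 0.05, as did 328 of 12251 genes. No alternative setting called a member, and the authors' deposited table called 0 of 36, against 0.109% of all genes higher and 0.0546% lower, with a lowest adjusted p of 0.0987 for Top2a. Of the 25 mitotic genes, 18 had both BcBKO HFD libraries above both flox/flox HFD libraries after scaling, against 14.9% of all genes. The fold of scaled FPKM in BcBKO HFD over flox/flox HFD had a median of 1.88 over the 25 genes (range 1.09 to 4.36).

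The libraries of each group were not alike. BcBKO HFD replicate 1 was above replicate 2 in 21 of 25 mitotic genes, and flox/flox HFD replicate 1 was above replicate 2 in 2 of 25. The summed mitotic FPKM was 61.7 and 41.2 in BcBKO HFD, against 21.5 and 31.7 in flox/flox HFD. The median fold of scaled FPKM over the 25 genes was 3.0 for BcBKO HFD replicate 1 over flox/flox HFD replicate 1 and 1.19 for replicate 2 over replicate 2. Top2a had 4.42 and 2.93 FPKM in BcBKO HFD, against 0.89 and 1.74 FPKM in flox/flox HFD (log2 change 0.96, SE 0.26, 95% interval 0.29 to 1.62). Kif20a, a kinesin of cytokinesis, had 2.01 and 1.55 FPKM in BcBKO HFD, against 0.52 and 0.80 FPKM in flox/flox HFD (log2 change 0.70, 95% interval 0.26 to 1.13). For both genes the groups did not overlap. For Top2a, however, the BcBKO HFD replicates lay further apart in FPKM than the nearest libraries of the different groups (2.93 and 1.74 FPKM). Ube2c had 8.77 and 3.50 FPKM in BcBKO HFD, against 2.06 and 3.46 FPKM in flox/flox HFD, and its groups met (log2 change 0.77, 95% interval -0.27 to 1.81).

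The S phase and G1 genes showed smaller differences in the HFD table. Of the S phase genes only Rrm2 did not overlap between the groups after scaling, at 3.34 ± 0.375 FPKM in BcBKO HFD and 2.0 ± 0.276 FPKM in flox/flox HFD (SD, n = 2 each). Pcna had 26.36 and 22.7 FPKM in BcBKO HFD, against 22.98 and 22.07 FPKM in flox/flox HFD (log2 change 0.03, 95% interval -0.27 to 0.33). Ccnd2 had 85.99 and 107.52 FPKM in BcBKO HFD, against 104.11 and 112.47 FPKM in flox/flox HFD (log2 change -0.26, 95% interval -0.68 to 0.17). Cdk4 had 109.02 and 112.64 FPKM in BcBKO HFD, against 111.6 and 104.1 FPKM in flox/flox HFD (log2 change -0.05, 95% interval -0.34 to 0.24). All 4 G1 genes overlapped between the groups, whereas 12.8% of all genes lay lower in BcBKO HFD without overlap. None of the 33 wider mitotic genes, 30 replication genes, 16 G1 regulators or 6 DREAM genes was called by limma (lowest adjusted p of 1), with medians of 0.31, 0.13, 0.07 and 0.01 on the log2 scale. The macrophage markers summed to 114 and 104 FPKM in BcBKO HFD, against 79.2 and 107 FPKM in flox/flox HFD, and the acinar markers to 25600 and 25300 FPKM against 18400 and 56600 FPKM. Thus flox/flox HFD replicate 1 was the lowest library for the macrophage sum, and flox/flox HFD replicate 2 was the highest for the acinar sum. The endothelial markers summed to 218 and 241 FPKM in BcBKO HFD, against 187 and 167 FPKM in flox/flox HFD, and 5 of 6 were higher without overlap after scaling, although limma called none (lowest adjusted p of 1). The part of these cells in the spread of the mitotic genes was not tested.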

How the data were processed

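Per the labels, messenger RNA of pooled mouse islets was sequenced, and per the submitters' processing notes the genome build was GRCm38.p6. The aligner and the counting tool are not given in the sources used here. The authors deposited 4 tables with FPKM per gene and library, and for the HFD table also TPM. Per the file headers, the tables also hold the authors' log2 fold changes, p-values and adjusted p-values, from DESeq2 in the PBS and db tables and with no tool named in the HFD table. The members and the gene lists were chosen with earlier results of these data known.

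Each library was divided by its median ratio to the geometric mean library of its table, over genes above 1 FPKM in every library. Genes with a mean of at least 0.5 FPKM over the table were tested with limma 3.58.1 (R 4.3.3) on log2(scaled FPKM + 1), two-sided, with a variance trend and Benjamini-Hochberg adjustment over all genes tested (threshold 0.05). All groups of a table entered 1 fit. The method was checked on simulated data, with changes planted only in genes well above the filter of 0.5 FPKM. That check thus does not cover genes near the filter or under it. Values in every library are given for up to 12 members per comparison, those past the threshold with the largest change, or those with the highest mean where fewer than 6 passed. The G1 genes and Kif20a, Top2a and Ube2c in the HFD table were added after their values were seen. Alternatives were no filter, a filter of 1 FPKM in at least 2 libraries, a pseudocount of 0.1, the deposited scale, TPM, the replicate number as a block, only the libraries compared, and each library left out in turn. Read depth is unknown, so no counting intervals are given. For WT, 275 lines lacked a value and 27 identifiers were repeated. Reads shared with pseudogenes or overlapping genes could not be assessed from these tables.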

Additional observations from a re-analysis of the deposited data

Results flagged for a closer look

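Among the 5 WT libraries, replicate 5 stood apart for 2 of the 36 genes. Its value of Kif11, a mitotic kinesin gene, was 0.31 FPKM, against a median of 0.21 FPKM, and the gap to the next library was 0.714 of the whole range. Its value of Foxm1 was 0.45 FPKM, against a median of 0.28 FPKM, with a gap of 0.762 of the range. Both exceed Dixon's critical value of 0.71 for 5 samples, and chance alone passes it in about 1 in 20 groups looked at.

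Ccnd3 lay on opposite sides in KO_REG3B-Fc against KO_PBS and in db_REG3B against db_GFP, although only the first difference was called. Its scaled FPKM in KO_REG3B-Fc was 0.774 of that in KO_PBS, with both libraries lower, and in db_REG3B it was 1.06 of that in db_GFP, with both libraries higher. The difference between the comparisons was not tested, and on the deposited scale Ccnd3 was higher in KO_REG3B-Fc and overlapped between db_REG3B and db_GFP.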

How the results depend on the processing

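Of 728 re-tests of the 77 calls of single members, 661 kept direction and threshold, 61 lost the threshold and 6 turned. The 6 that turned did so on the deposited scale: Pcna (-0.09) and Ccnd3 (-0.27) in KO_PBS against CTR_PBS, and Mcm2 (0.20), Mcm6 (0.12), Pcna (0.19) and Ccnd3 (0.25) in KO_REG3B-Fc against KO_PBS, all as log2 changes. That scale also called 1133 genes higher and 9777 lower in KO_PBS against CTR_PBS (5 members lower), 10452 higher and 896 lower in KO_REG3B-Fc against KO_PBS (7 members higher), 2027 higher and 337 lower in KO_REG3B-Fc against CTR_PBS (13 members higher, 0 lower), and 1530 higher in db_REG3B against db_GFP. With no filter, KO_REG3B-Fc against CTR_PBS had 394 genes higher and 336 lower (4 members higher), and BcBKO HFD against flox/flox HFD had 0 genes higher, as with TPM. Leaving out 1 library gave 0 to 1 genes higher in the HFD table, 1401 to 2008 lower in KO_PBS against CTR_PBS, 237 to 301 higher and 232 to 298 lower in KO_REG3B-Fc against CTR_PBS (2 to 3 members higher, 0 lower), and 1501 to 2015 higher in db_REG3B against db_GFP, a fit with fewer samples in each case, in which a lone library is assumed to vary like the others. In the same refits, members called higher in KO_PBS numbered 19 to 24, and members called lower in db_REG3B 16 to 19. For the other changed values the cause was not tested. The labels share replicate numbers but do not say that they pair samples; replicate differences correlated at 0.654 in the HFD table, 0.0235, -0.0197 and 0.0409 in the PBS table and -0.0462 in the db table. With the replicate number as a block, 1 gene was lower in the HFD table and 4 members were higher in KO_REG3B-Fc against CTR_PBS, where Mki67, Ccnb1 and Tpx2 lost their calls.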
